A study of Arabidopsis thaliana with 14 samples.

Results

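A set of 221 probe sets was lower with brassinolide in dark-grown wild-type Arabidopsis seedlings, lower again with brassinolide after 2 h of light, and differed by less than 2-fold between darkness and 2 h of light. They were chosen from 22746 probe sets by 4 differences between group means on the log2(signal + 16) scale. Both brassinolide differences had to be at -0.8 or below, both light differences had to lie between -1 and 1, and the mean signal over all arrays had to be at least 50, which 17788 probe sets met. The thresholds gave 234 probe sets, and 13 were then left out by name or family: AT2G16005, 4 peroxidases, 2 expansins and 6 jacalin lectins. Of the 221 members, 92 carry 1 gene in the annotation used here (91 loci, since AT1G31710 has 2 probe sets), 5 carry several genes and 124 (56.1%, against 42.2% of all probe sets tested) are unnamed. The unnamed members could not be screened for the families left out. Only 10 members have a gene symbol, and the annotation gives the others by locus alone.

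Transcript levels of whole seedlings were measured on 14 one-colour arrays, 2 in each of 7 groups. Wild-type Col seedlings were grown for 7 days in darkness without (Col dark) or with brassinolide (Col + BL), or were grown in either way and then given 2 h of light (Col light and Col + BL light). The brassinosteroid-deficient mutant det2 was 7 days old in darkness (det2 dark) or in light (det2 light), and a group aged 14 days was moved from light to darkness for its last 8 h (det2 shifted). No det2 group received brassinolide, no wild-type group was grown in continuous light, and the dose and duration of brassinolide are not given in the sources used here.

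Brassinolide is the most active of the brassinosteroids, the plant steroid hormones. Its perception by the receptor kinase BRI1 at the cell surface leads to active BZR1 and BES1, transcription factors that both activate and repress genes. DET2 encodes a steroid reductase of the synthesis pathway, and dark-grown det2 mutants are short, with open cotyledons. Brassinolide is known to lower genes of its own synthesis, but the array annotation used here names none of the 13 synthesis and inactivation genes looked for and 1 of 16 perception and signalling genes. That gene, BRL1, a receptor related to BRI1, was not a member and passed the test in none of the 3 comparisons among the det2 groups.

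The arrays had median signals from 187.9 to 218.6, and the Pearson correlation of log2 signals between the 2 replicates was 0.963 to 0.981. Of 16 light-response and antenna genes, 8 were measured, and their median log2 difference between Col light and Col dark was 1.41. Both Col light arrays were above both Col dark arrays for all 8 except PORB, a protochlorophyllide reductase, for which they were below. DET2 itself has no named probe set and could not be used to check the genotype. The labels name no hybridisation batch, and wild type and det2 cannot be told apart from one.

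**Figure D1:**
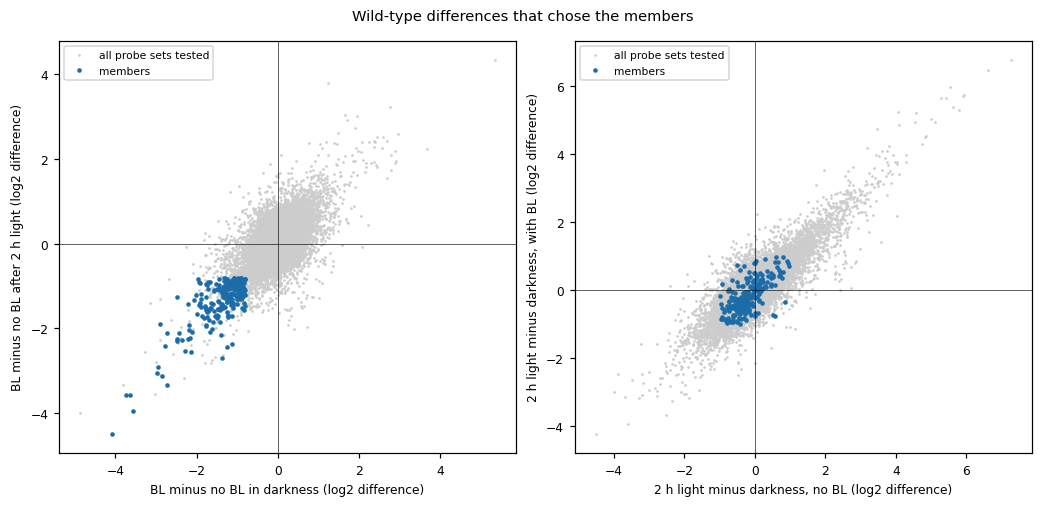
The 4 wild-type differences that chose the members, as log2 differences of group means with each point 1 probe set. The left panel sets the brassinolide difference in darkness (x) against that after 2 h of light (y), the right panel the light difference without (x) against with (y) brassinolide. Blue points are the 221 members, which reach -4.08 and -4.49 on the left, and grey points are all 17788 probe sets tested.

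The wild-type values chose the members, so they are described here with no test. The median brassinolide difference over the members was -1.26 in darkness and -1.20 after light, against 0.05 and 0.08 over all probe sets tested. The light difference had a median of -0.22 without and -0.23 with brassinolide, against -0.12 and -0.06. Both treated arrays lay below both untreated ones for 209 members in darkness (94.6%, against 18.3% of all probe sets) and for 211 after light (95.5%, against 14.9%), and 202 did so in both. Taking replicate 1 alone, 220 members were lower with brassinolide in both conditions and 175 met both thresholds, and with replicate 2 alone the counts were 220 and 166. The median of the group means over the members was 607.1 signal units in Col dark, 231.25 in Col + BL, 541.35 in Col light and 190.15 in Col + BL light.

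Near the thresholds, the choice between member and non-member rested on small amounts. M17 was inside at -0.803 after light and NAI1, a regulator of endoplasmic reticulum bodies, was outside at -0.798. AT1G50040 was inside at -0.804 in darkness and AT3G51440 outside at -0.796. AT2G40420 was inside at -0.805 after light and AT1G10020 outside at -0.790. On the light difference, AT4G11210 was inside at -0.99 and AT2G44010 outside at -1.002.

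AT4G37220 had the largest mean brassinolide difference. Its signal was 6578.6 and 4064 in Col dark, 377.2 and 223.6 in Col + BL, 7333.2 and 2438.9 in Col light, and 202.3 and 146.9 in Col + BL light. The treated arrays were far below the untreated ones, and the difference of -4.49 after light was the lowest of all 17788 probe sets tested. Its det2 arrays read 1147.4 and 984.5 in darkness, 196 and 291 in light, and 731.7 and 665.3 in the shifted group. Dark-grown det2 therefore stood between the untreated and the treated wild type, and det2 in light stood in the range of the treated wild type. AT4G37220 fell by 2.08 ± 0.42 (SE) on the log2 scale from det2 dark to det2 light (4.23-fold, adjusted p = 0.00172, limma over all probe sets). It rose by 1.48 ± 0.42 from det2 light to the shifted group (adjusted p = 0.0342), a call that was lost without any single 1 of the 6 det2 arrays.

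**Figure D2:**
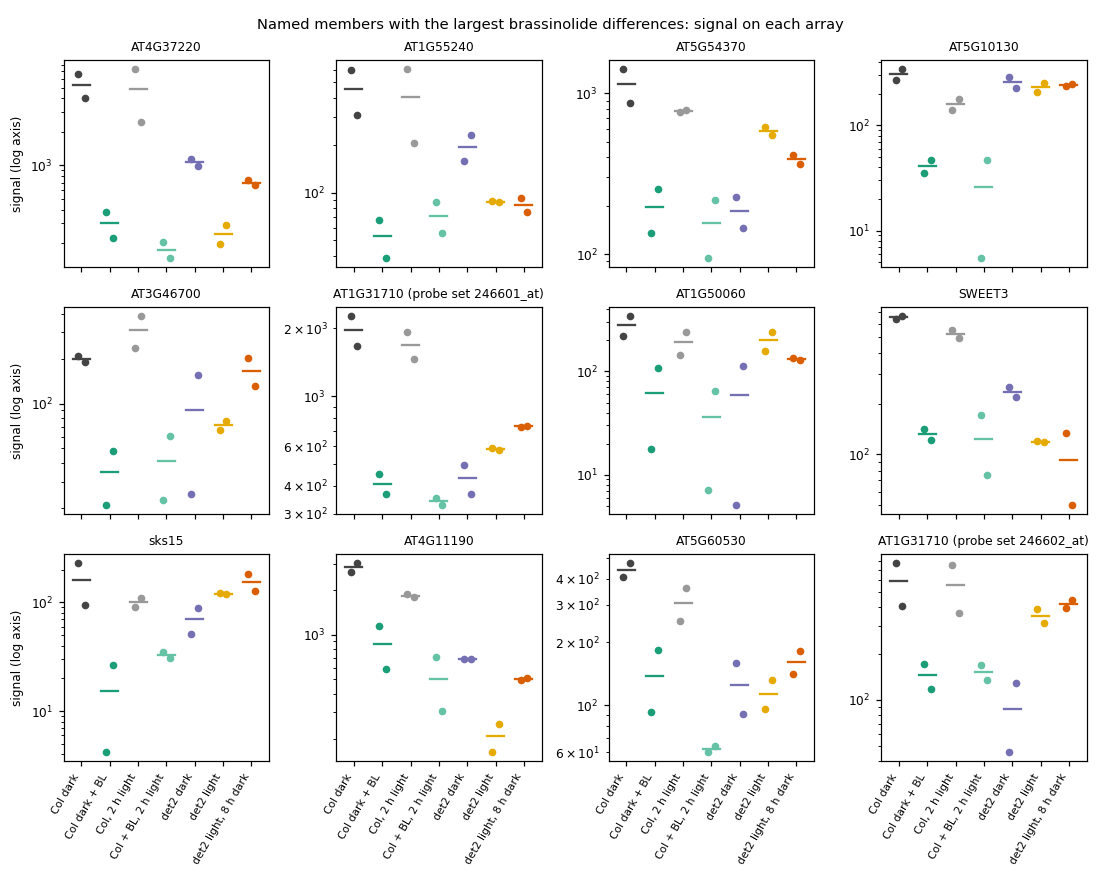
Signal on each array (log axis) for the 12 single-gene probe sets with the largest mean brassinolide difference, with points for arrays and bars for the mean of the 2 arrays of a group. In each panel the means of both groups with brassinolide lie below those of their untreated partners, while the 3 det2 groups differ from gene to gene: AT5G10130 stays between 208 and 288.5 on the det2 arrays, whereas SWEET3 lies between 50 and 252.1.

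SWEET3 and SWEET11 belong to a family of membrane transporters that move sugars. For both, every wild-type array with brassinolide was below every array without it. SWEET3 read 640.8 and 662.9 in Col dark and 141.1 and 121.7 in Col + BL, then 547.3 and 490.4 in Col light and 172.2 and 75.2 in Col + BL light. In det2 SWEET3 read 252.1 and 219.2 in darkness, 120.1 and 118.3 in light, and 134.5 and 50 in the shifted group, all below every untreated wild-type array. SWEET3 was 2.52-fold lower in the shifted group than in det2 dark (log2 difference -1.33 ± 0.36, adjusted p = 0.0141), and the difference of -0.89 between det2 light and dark did not pass (adjusted p = 0.0676).

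SWEET11, known for sucrose efflux on the way to the phloem of leaves, was among the most abundant members. It read 9753.9 and 8432.4 in Col dark and 2831 and 2416.8 in Col + BL, then 11772.1 and 6500.9 in Col light and 4134.3 and 2427.8 in Col + BL light. Its det2 dark arrays, at 12988.6 and 15977.1, were above every wild-type array. SWEET11 was 1.99-fold lower in det2 light (7205.2 and 7249.6) than in det2 dark, a log2 difference of -0.99 ± 0.26 (adjusted p = 0.00974). It stayed at 6851.7 and 7323.2 in the shifted group (log2 difference from det2 light -0.03, adjusted p = 0.965).

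STR18, UGT73B4 and GSTU28 carry the names of a sulfurtransferase, a glycosyltransferase that adds sugars to small molecules, and a glutathione S-transferase of the tau class. STR18 read 2668.6 and 3937.2 in Col dark, 982.6 and 961.3 in Col + BL, 4524.5 and 3493.8 in Col light, and 2232.4 and 1567.9 in Col + BL light. Its det2 dark arrays, at 5162.7 and 5679.8, were above all wild-type arrays. STR18 then fell 4.33-fold to 1164 and 1317.8 in det2 light, a log2 difference of -2.11 ± 0.21 (adjusted p = 7.16e-06), and stood at 1008.6 and 1016.8 in the shifted group.

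UGT73B4 went the other way between the det2 groups. It read 405.1 and 309.5 in Col dark and 82.3 and 121.8 in Col + BL, then 347.4 and 447.1 in Col light and 95.1 and 170.2 in Col + BL light. In det2 it read 272.7 and 194.6 in darkness, 442.1 and 446.6 in light, and 148.2 and 147.6 in the shifted group, with no overlap between the 3 groups. UGT73B4 rose by 0.90 ± 0.27 on the log2 scale from dark to light (adjusted p = 0.0204) and fell by 1.49 ± 0.27 (2.81-fold) from light to the shifted group (adjusted p = 0.0036). It was the only single-gene member that passed as lower in the shifted group than in det2 light with arrays that did not overlap.

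GSTU28 read 140.7 and 233.6 in Col dark against 47.8 and 39.9 in Col + BL, and 170.3 and 184.4 in Col light against 109.7 and 69.5 in Col + BL light. Its det2 dark arrays, at 109.8 and 64.1, were below Col dark and above Col + BL. GSTU28 was 0.90 ± 0.30 higher on the log2 scale in the shifted group, at 173.3 and 169.9, than in det2 dark (adjusted p = 0.038).

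M17, a late-embryogenesis transcript of seed maturation, and LCR67, a small cysteine-rich peptide also named as a plant defensin, showed the widest range among the det2 groups. M17 read 1352 and 3158 in Col dark, 582.9 and 1123.3 in Col + BL, 1612.9 and 1952 in Col light, and 711.1 and 1432.6 in Col + BL light. Replicate 2 was the higher in each of these 4 groups, and treated and untreated arrays did not overlap in either pair. In det2 M17 read 9288.2 and 9110.8 in darkness, 3.8 and 4.4 in light, and 2.7 and 18.2 in the shifted group. The fall from det2 dark to det2 light was at least 459-fold, a log2 difference of -8.84 ± 0.42 (adjusted p = 3.59e-08), the lowest of all 17788 probe sets. It is written as a lower limit because levels under 16 are pulled toward each other by the added constant.

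LCR67 read 941.9 and 4780.4 in Col dark, 214.5 and 1630.3 in Col + BL, 1015.6 and 1966.1 in Col light, and 209.5 and 1107.6 in Col + BL light. Its replicates differed more than those of any other member with a symbol in Col dark, and treated and untreated arrays overlapped in both conditions. The det2 dark arrays, at 3275.8 and 2777.4, lay between the Col dark arrays. LCR67 was at 109.2 and 91.5 in det2 light, 26.1-fold below det2 dark (log2 difference -4.71 ± 0.89, adjusted p = 0.00117), and at 5.2 and 3.2 in the shifted group, at least 150-fold below det2 dark (-7.23 ± 0.89, adjusted p = 7.94e-05).

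AT3G02480 and AT3G19920, known here by locus alone, followed the same course across the det2 groups. AT3G02480 read 664.3 and 2163 in Col dark, 152.9 and 616.2 in Col + BL, 787.5 and 1436.1 in Col light, and 380.9 and 555.1 in Col + BL light. Its det2 dark arrays, at 10788 and 11824.3, were above every wild-type array, 9.29-fold over Col dark. AT3G02480 fell 83.3-fold to 120.6 and 119 in det2 light (log2 difference -6.38 ± 0.57, adjusted p = 3.76e-06) and read 87.3 and 44.9 in the shifted group. AT3G19920 stood at 453.8 and 311.7 in det2 dark, 8.4 and 8.2 in det2 light and 4.9 and 7.4 in the shifted group, a fall of at least 16.1-fold from dark to light (log2 difference -4.01 ± 0.75, adjusted p = 0.00107). As with M17 and LCR67, replicate 2 was the higher for both genes in each of the 4 wild-type groups.

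**Figure D3:**
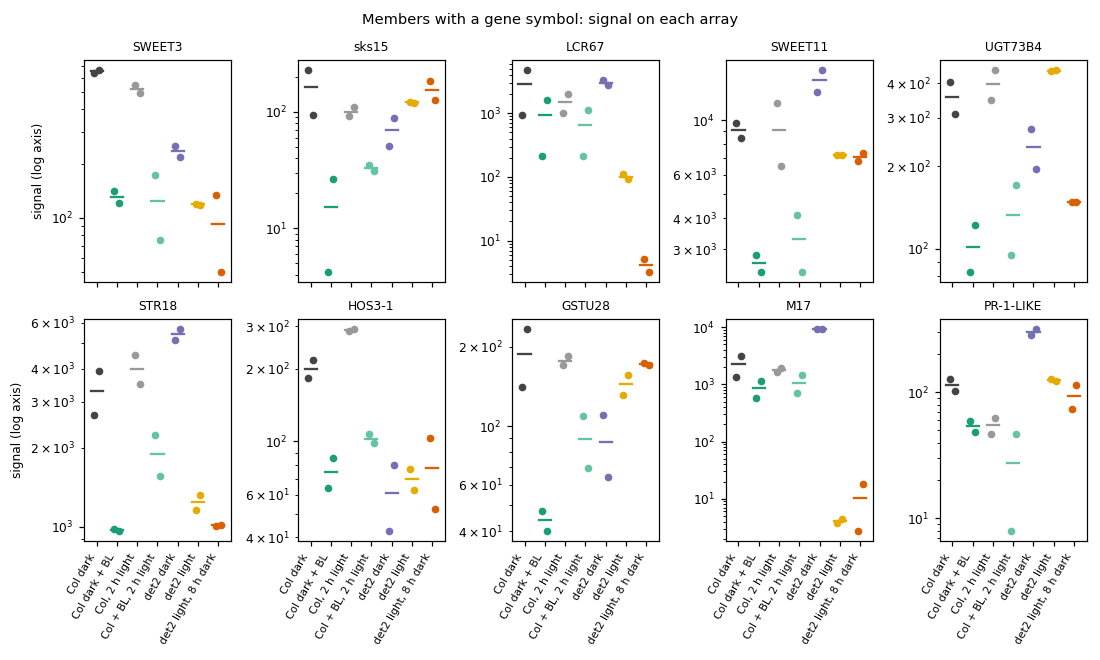
Signal on each array (log axis) for the 10 members with a gene symbol, with points for arrays and bars for the mean of 2 arrays. The det2 dark arrays are above every wild-type array for SWEET11, STR18, M17 and PR-1-LIKE, and below both Col dark arrays for SWEET3, sks15, UGT73B4, HOS3-1 and GSTU28.

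PR-1-LIKE, HOS3-1 and sks15 complete the members with symbols. PR-1-LIKE, a relative of the secreted pathogenesis-related protein PR-1, read 126.9 and 103.4 in Col dark and 59.7 and 48.3 in Col + BL, and 287.9 and 318.8 in det2 dark, above all wild-type arrays. It was 2.24-fold lower in det2 light, at 128.3 and 124.1 (log2 difference -1.17 ± 0.38, adjusted p = 0.0291). HOS3-1, which belongs to a family of fatty acid elongase-like membrane proteins, read 182.6 and 218.2 in Col dark, 64.4 and 85.3 in Col + BL, and between 42.4 and 103.1 on the 6 det2 arrays. It passed the test in none of the 3 det2 comparisons. The multicopper oxidase relative sks15 read 229.5 and 94.6 in Col dark, 4.2 and 26.6 in Col + BL, and between 50.7 and 183.7 on the det2 arrays, likewise with no call.

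Across the whole set, dark-grown det2 was lower than untreated dark-grown wild type for most members. This is a description with no test, because the Col dark arrays that chose the members enter it: choosing members with high Col and low Col + BL values tilts det2 minus Col downward and det2 minus Col + BL upward. The median log2 difference between det2 dark and Col dark was -0.90 over the members, with a range from -4.24 to 3.22, against a median of 0.08 over all probe sets. Both det2 arrays lay below both Col arrays for 144 members (65.2%, against 30.4% of all probe sets), above both for 30 (13.6%, against 37.6%), and overlapped for 47. In RNA of seedlings, fewer cells of a type and less RNA per cell cannot be told apart.

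Against the treated wild type, the median difference of det2 dark from Col + BL was 0.49, and 115 members were above both Col + BL arrays (52.0%, against 37.6%). Of the 144 members below Col dark, 45 stood wholly between the untreated and the treated wild type, 53 overlapped the treated arrays and 46 were below these too. Those 46 are 20.8% of the members. Of all probe sets, 33.4% were below Col + BL and 25.0% below both wild-type groups in det2. For the 45 and the 53 no share over all probe sets was computed, so they are counts only. The 30 members above Col dark (13.6% of the members) were also above Col + BL, while 30.2% of all probe sets were above both. For members this was nearly fixed in advance, since the thresholds placed Col + BL below Col dark. Of the 124 unnamed members, 81 were below and 12 above Col dark, and of the 92 single-gene members 59 were below and 17 above. Shares over all unnamed or all single-gene probe sets were not computed.

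**Figure D4:**
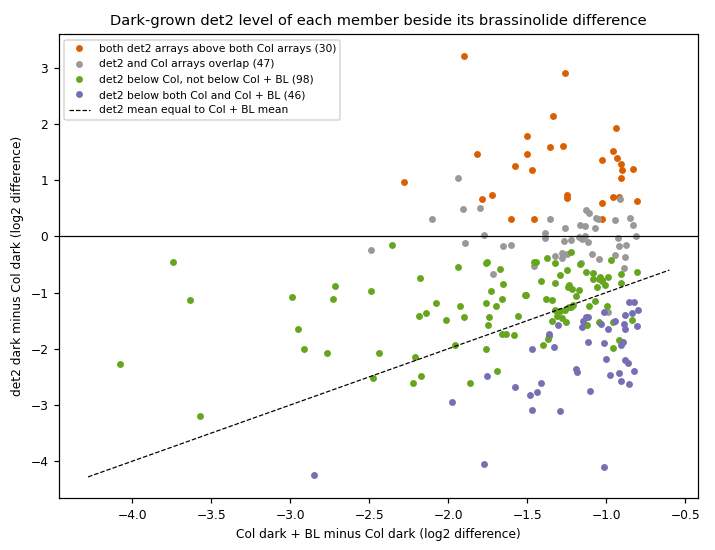
For each of the 221 members, the log2 difference between det2 dark and Col dark (y) against the brassinolide difference in darkness (x), both from group means. Points are coloured by whether the 2 det2 arrays lie above, overlap or lie below the wild-type arrays: 30 are above Col, 47 overlap Col, 98 are below Col only and 46 are also below Col + BL; both axes share the Col dark arrays, so their relation is not a result.

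Lowest in dark-grown det2 among the single-gene members was AT4G11210. Its det2 dark arrays read 4.6 and 9.9, against 320.4 and 421.9 in Col dark and 125.1 and 73.3 in Col + BL, at least 16.6-fold under the untreated wild type. AT4G11210 then rose by 1.95 ± 0.29 on the log2 scale to 58.4 and 90.5 in det2 light (adjusted p = 0.000221), and stood at 102.4 and 115.2 in the shifted group, 2.43 ± 0.29 above det2 dark (adjusted p = 6.86e-05). AT2G25150 read 277.2 and 337.6 in Col dark, 125.5 and 79.8 in Col + BL, and 41.8 and 8.7 in det2 dark. AT5G38030 read 571.7 and 679.1, then 293.3 and 132.8, and stayed between 62.6 and 90.9 on all 6 det2 arrays, with no call in the 3 det2 comparisons. Both genes were thus below the treated wild type in det2 dark, with log2 differences of -1.62 ± 0.44 and -1.11 ± 0.30.

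AT1G31710 was measured by 2 probe sets, which gave a view of 1 gene from separate probes. The brighter probe set read 2266.4 and 1667.1 in Col dark, 449.2 and 368.7 in Col + BL, and 496.4 and 367.9 in det2 dark. The dimmer one read 771.4 and 407.2, then 171.8 and 118.3, and 45.9 and 128 in det2 dark. Both placed det2 dark well below Col dark, with log2 differences of -2.14 ± 0.20 and -2.61 ± 0.41. From det2 dark to light, the brighter went to 586.5 and 578.9, which did not pass (0.43, adjusted p = 0.111), and the dimmer to 392.2 and 313.7. The dimmer probe set rose by 1.96 ± 0.41 on the log2 scale (adjusted p = 0.00246), and only the comparison of the shifted group with det2 dark was called for both, at 0.76 (adjusted p = 0.0129) and 2.20 ± 0.41 (adjusted p = 0.00167).

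Among single-gene members above wild type in dark-grown det2, AT5G01740 was high in all 3 det2 groups. It read 222.5 and 203.8 in Col dark, 89.1 and 70.7 in Col + BL, 1512.5 and 1913.1 in det2 dark, 2313.8 and 2378.9 in det2 light, and 4434.9 and 3953.2 in the shifted group. Every det2 array was above every wild-type array, and the shifted group was 1.29 ± 0.24 above det2 dark on the log2 scale (adjusted p = 0.0017). AT1G64370 was likewise above wild type on all 6 det2 arrays, at 1965.6 to 2664.4 against 923.5 and 443.8 in Col dark. AT2G30540 read 130 and 293.8 in det2 dark against 40.9 and 38.7 in Col dark, and 147.9 to 208.7 in the other det2 groups. Both Col dark values lay below the minimum mean signal required of members, and every det2 array lay above it. High det2 arrays thus helped AT2G30540 to be chosen, so its level above wild type is not independent of the choice. AT5G48110 was high in det2 darkness only, at 1247.5 and 934.2 against 580.2 and 249.9 in Col dark, and was 5.39-fold lower in det2 light (log2 difference -2.43 ± 0.33, adjusted p = 0.000113).

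The det2 arrays entered the choice of members only through the minimum mean signal over all arrays, so the comparisons among them were tested. A probe set low in wild type could pass that minimum through high det2 arrays. Without the minimum the thresholds gave 256 members, all 221 among them. A level of light response of at most 2-fold in wild type covers 2 h of light, whereas det2 light and det2 dark compare growth of 7 days in each. Between these, 106 members passed the test (48.0%, against 37.2% of all probe sets). Of these, 75 were lower in light (33.9%, against 17.7%) and 31 higher (14.0%, against 19.5%). A change of 2-fold or more was seen for 77 of the 106, with no such share computed over all probe sets. The median log2 difference over the members was -0.36, against 0.01 over all probe sets. Of the 92 single-gene members, 29 were lower and 12 higher, with no share computed over all single-gene probe sets. Without either det2 light array the number higher was 20 or 17.

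**Figure D5:**
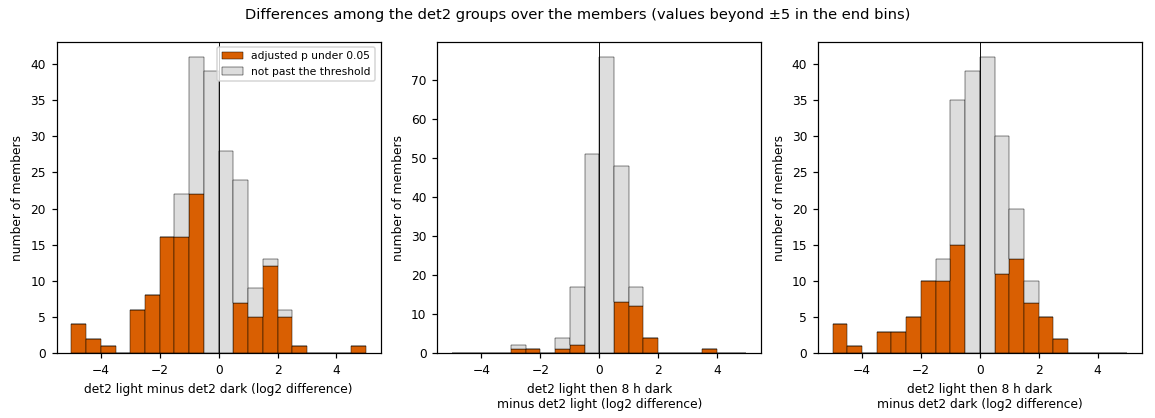
Number of members (y) by log2 difference (x) in the 3 comparisons among det2 groups, with orange for members past the adjusted p of 0.05 and grey for the rest, and values beyond the axis in the end bins. From det2 dark to det2 light 75 were lower and 31 higher, from light to the shifted group 5 lower and 30 higher, and from dark to the shifted group 51 lower and 38 higher.

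AT3G16220 had the largest rise in light among the single-gene members whose groups did not overlap. It read 197.7 and 78.7 in det2 dark, 897.7 and 945.4 in det2 light, and 715.3 and 732.4 in the shifted group, and no wild-type array exceeded 375.6. AT3G16220 rose by 2.72 ± 0.35 on the log2 scale (6.59-fold, adjusted p = 7.01e-05) and was 2.38 ± 0.35 above det2 dark in the shifted group (adjusted p = 0.000324). AT1G71140 read 125.2 and 75.7 in det2 dark and 393.7 and 516.8 in det2 light, a rise of 2.04 ± 0.32 (adjusted p = 0.000329), and 198.8 and 253.1 in the shifted group. AT5G19800 read 15.9 and 62.1 in det2 dark and 189.7 and 169.9 in det2 light, a rise of 1.97 ± 0.62 (adjusted p = 0.0244) that was lost without replicate 1 of det2 dark (1.32, adjusted p = 0.193) and without either det2 light array. AT5G54370, low in det2 dark at 226.1 and 144.7, rose by 1.60 ± 0.36 to 614.2 and 550.3 in light (adjusted p = 0.00356), still below its 1410.3 and 871.1 in Col dark.

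The largest rise of any member belonged to an unnamed probe set, 252618_at, picked out after its values were seen. It read 82.7 and 85.3 in det2 dark, 4777.1 and 5226.1 in det2 light, and 645.4 and 663.5 in the shifted group. Wild-type arrays of 252618_at read 154.9 and 95.4 in Col dark and 45.1 and 26.1 in Col + BL, so the light-grown det2 level was far outside the wild-type range. The rise was 5.65 ± 0.26 on the log2 scale (adjusted p = 2.59e-08) and the log2 difference from det2 light to the shifted group was -2.90 ± 0.26 (adjusted p = 3.41e-05). Another unnamed probe set, 254828_at, had differences of -3.74 and -3.58 with brassinolide and fell by 4.36 ± 0.33 from det2 dark, at 2637.4 and 2899.1, to det2 light, at 101.3 and 139.6 (adjusted p = 9.09e-07).

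Among the members lower in det2 light, AT3G53980 read 7137.7 and 7116.5 in det2 dark against 1008.2 and 1052.6 in light, a 6.83-fold fall (log2 difference -2.77 ± 0.26, adjusted p = 4.52e-06), and stayed at 1064.1 and 1148.9 in the shifted group. Its Col dark arrays, at 3180.4 and 3730.8, lay between these levels. AT1G69080 read 285.6 and 204.9 in det2 dark, 21.2 and 24.4 in light, and 9.7 and 28.5 in the shifted group, where its log2 difference from det2 dark was -2.93 ± 0.41 (adjusted p = 0.000227).

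From det2 light to the shifted group, 35 members passed the test (15.8%, against 12.4% of all probe sets). The count was 30 higher (13.6%, against 5.98%) and 5 lower (2.26%, against 6.4%), and the median difference was 0.19 against 0.03. These groups differ in age, 7 and 14 days, as well as in the 8 h of darkness. Without any 1 of the 4 arrays compared the number that passed was 15 or 16, with 11 to 13 of them higher.

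AT1G50040 showed the largest rise of all 17788 probe sets in this comparison. It read 119.7 and 109 in det2 dark, 93.5 and 14.3 in det2 light, and 806.8 and 816 in the shifted group, and no wild-type array exceeded 371.6. The rise was 3.84 ± 0.56 on the log2 scale (14.4-fold, adjusted p = 0.000827). The det2 light arrays differed widely from each other. The rise over det2 dark was 2.67 ± 0.56 (adjusted p = 0.00354). Its log2 difference does not use the det2 light arrays, but its error and p-value do, since the spread is fitted over all arrays.

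AT2G05540 and AT2G20670 were both abundant and both fell in light and rose in the shifted group. AT2G05540 read 9336 and 7872.6 in Col dark, 3574.4 and 3635.7 in Col + BL, 13446 and 14058.1 in det2 dark, 2363.3 and 2299.1 in det2 light, and 8458.1 and 8781.8 in the shifted group. It was 5.86-fold lower in det2 light than in dark (log2 difference -2.55 ± 0.27, adjusted p = 1.37e-05) and rose 3.68-fold in the shifted group (1.88 ± 0.27, adjusted p = 0.000765). AT2G20670 read 4271.9 and 3878 in det2 dark, 2253.4 and 2015.4 in light, and 7232.3 and 8126.4 in the shifted group. Its log2 difference of -0.93 ± 0.30 in light (adjusted p = 0.0284) was followed by a rise of 1.84 ± 0.30 (adjusted p = 0.00185), to above its 4633.9 and 2312.1 in Col dark. AT4G11190 read 689.9 and 688.2, then 162.6 and 251.4, then 495.8 and 514.4, with a log2 difference of -1.69 ± 0.34 in light (adjusted p = 0.00197) and 1.25 ± 0.34 in the shifted group (adjusted p = 0.0312). The latter call was lost without any 1 of the 4 arrays compared.

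Against det2 dark, 89 members passed in the shifted group (40.3%, against 29.3% of all probe sets), 38 of them higher (17.2%, against 16.2%) and 51 lower (23.1%, against 13.0%). The median difference was -0.05, against 0.05. These groups differ in age, 14 and 7 days, as well as in growth in light or darkness, which cannot be told apart. AT4G01870 was among those higher, at 1304.5 and 1137.5 in det2 dark, 3921.5 and 3960.9 in light, and 5466.9 and 5583.7 in the shifted group (2.17 ± 0.34 above det2 dark, adjusted p = 0.000458). Without replicate 1 of the shifted group the number that passed was 59, with 18 higher. The number higher was 21 without its replicate 2 and 24 without replicate 1 of det2 dark. In all, 92 members (41.6%, against 53.7% of all probe sets) passed in none of the 3 det2 comparisons, and AT5G10130, at 288.5 and 225.3, 208 and 252.2, and 238.1 and 248.4, is an example.

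By the order of genes in the reference annotation, 10 of the 91 loci formed 5 pairs at most 2 genes apart. These were AT1G50040 and AT1G50060, AT3G51330 and AT3G51350, AT4G11190 and AT4G11210, AT5G38020 and AT5G38030, and AT5G60520 and AT5G60530. Such pairs were not counted over all tested loci, so their number is not a result about the members. Signal shared between near-identical copies was not tested. The neighbours AT4G11190 and AT4G11210 were both lower in det2 dark than in Col dark, with log2 differences of -2.01 ± 0.34 and -4.05 ± 0.29, but went opposite ways from det2 dark to det2 light, at -1.69 and 1.95. AT3G51330 and AT3G51350 were both below the treated wild type in det2 dark: the former read 168.5 and 180.8 against 423.2 and 552.2 in Col + BL, and the latter 37.2 and 9.7 against 56 and 152.3. AT5G60520 and AT5G60530 were both lower than Col dark in det2 dark, with log2 differences of -1.42 ± 0.67 and -1.73 ± 0.32, and had no call among the det2 groups. Genes of the members had a median length of 1627 bases, against 2250 over 9771 tested loci.

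Root and root hair markers were measured beside these results. Of 27 genes listed, 3 were measured: EXPA7 and EXPA18, expansins of root hairs that met the thresholds and were left out by family, and PYK10, a glucosidase of root endoplasmic reticulum bodies. Since the brassinolide values of both expansins chose them, they are given with no test. EXPA7 read 140.3 and 233.7 in Col dark against 18.4 and 126.5 in Col + BL, and 163.6 and 205.2 in Col light against 12.6 and 91.8 in Col + BL light. EXPA18 was likewise lower with brassinolide within each replicate number, by log2 differences of -1.45 ± 0.51 in darkness and -1.11 ± 0.51 after light. PYK10 was lower within each replicate number too, but only slightly, at -0.27 ± 0.12 and -0.17 ± 0.12. From det2 dark to det2 light both expansins were higher and PYK10 lower by the test. Their summed signal, mostly PYK10, was 13310.4 and 14940.1 in Col dark, 11386.6 and 11400.5 in Col + BL, 15006.9 and 12485 in Col light, and 12048 and 11867.6 in Col + BL light. It was 20585 and 23360.8 in det2 dark, 15959.3 and 16403.3 in det2 light, and 14707.6 and 14138.2 in the shifted group. The sum was lower in the treated groups of both pairs and highest in det2 dark, and its part in the members' differences was not tested. Between det2 dark and Col dark the 3 markers did not go the same way. The log2 difference was 0.69 ± 0.12 for PYK10, but -1.68 ± 0.67 for EXPA7 and -1.68 ± 0.51 for EXPA18, given with no test.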

How the data were processed

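Total RNA of seedlings was hybridised to 1-colour arrays with 22810 probe sets. The authors deposited linear intensity values for 14 arrays. The submitters' processing notes name MAS5 and limma, without versions. Every array has a mean of 500.0 after trimming 2% at each end, so the deposited values were used as they are. No detection calls or probe-level data were used here. With 2 arrays per group, their number limits the precision, and the labels do not say that replicates came from separate cultures, so p-values measure only the spread between these arrays.

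The 64 control probe sets were set aside, as were 4958 with a mean under 50. The 17788 others were tested as log2(signal + 16), which understates changes of low signals, with 1 mean per group over all arrays in limma 3.58.1 (R 4.3.3, variance trend). Adjusted p-values are Benjamini-Hochberg over all probe sets within a comparison, with 0.05 as the threshold. Errors of log2 differences are standard errors of that fit. The fit was tested on simulated data. Figures were drawn with matplotlib 3.10.9.

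The members and gene lists were chosen with earlier results of these data known. Genes were named where exactly 1 gene was annotated, and were the 12 probe sets with the largest mean brassinolide difference, up to 5 called per direction and det2 comparison whose groups did not overlap, up to 6 farthest above and below Col dark in det2, the 8 nearest a threshold, and those with a symbol. Of the annotation, 13513 probe sets have 1 gene, 503 several, and 8730 are unnamed. Neighbours and lengths come from the TAIR10.1 gene table, in which all 91 loci matched.

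Replicate numbers were checked by correlating the arrays' deviations from their group means. The 6 correlations between wild-type groups were 0.227 to 0.429, the 3 between det2 groups -0.033 to 0.016 and the 12 between genotypes -0.049 to 0.041. The numbers thus pair the wild-type arrays, between which no test is reported, and are names only in det2. The main fit does not model that pairing, and the spread between paired wild-type arrays enters the errors of the det2 tests. With the det2 arrays fitted alone, 139, 78 and 126 members passed in the 3 det2 comparisons, against 106, 35 and 89 in the main fit. Alternatives covered the constant, the filter, quantile normalization, the trend, the arrays fitted, the thresholds, the replicate block and each array left out.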

Additional observations from a re-analysis of the deposited data

How the results depend on the processing

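The thresholds set how many members there are: 138 with a difference of at least 1 and 400 with at least 0.6, all 221 among the latter. Leaving out 1 wild-type array gave 193 to 227. Chosen after the data were seen, the same thresholds within replicate 1 alone gave 255 (152 shared) and within replicate 2 alone 205 (145 shared). The median det2 difference from Col dark lay at -0.97 with a constant of 1, -0.75 with 64, -1.05 after quantile normalization and -0.96 to -0.83 with an array left out. With members chosen on one replicate and Col dark read on the other it was -0.96 and -0.62.

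From det2 dark to light, the calls without 1 array numbered 78 to 116, with 17 to 38 higher and 56 to 80 lower, and 49 were higher with the det2 arrays fitted alone. From light to the shifted group, the det2 arrays alone gave 78 calls, 59 higher and 19 lower, a fit with no variance trend gave 19 higher, and single arrays left out gave 15 to 39, with 11 to 33 higher and 2 to 7 lower. From dark to the shifted group, the det2 arrays alone gave 59 higher, and single arrays left out 59 to 94, with 18 to 41 higher and 40 to 55 lower. With the replicate number as a block, a pairing the det2 arrays did not show, the counts were 122, 47 and 100, and 10 members were lower from light to the shifted group. The causes of these shifts were not tested.

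Among named genes, recomputing covered 26 results, the largest called changes per direction and det2 comparison with no overlap. Of 570 recomputed results, 555 kept their call and 0 reversed. Settings that changed only the filter, the trend, the block or the arrays of groups not compared left each log2 difference as it was. In those no reversal was possible, and only the error and the p-value could change. Other calls given for named genes, such as those of GSTU28, PR-1-LIKE and SWEET3, were not among them. The 15 losses fell on 3 genes: AT5G19800 (adjusted p up to 0.193), AT4G37220 (up to 0.240) and AT4G11190 (up to 0.252), the latter 2 in the shifted group, also without a variance trend (0.0628 and 0.0583).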
